A study of Mus musculus with 6 samples.

Results

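miR-210 is a microRNA made as 2 arms of a single hairpin, miR-210-3p and miR-210-5p, and both arms were read on 6 arrays of mouse hepatoma tumours. The members were all array entries whose systematic name was mmu-miR-210-3p or mmu-miR-210-5p, which gave 2 of the 1881 miRNAs on the array. The 3p arm was bright on every array. The 5p arm counted as detected on 0 of 6 arrays. Mean miR-210-3p was lower in the GLE tumours by 0.25 on the log2 scale, with values that overlapped between the groups and no call by the test across all miRNAs. Across the 6 tumours, miR-210-3p ran opposite to the marker miRNAs of immune cells and fibroblasts. The relation was weaker with no scaling between arrays and in the table of values that the authors deposited. It was not particular to these markers, since 31 of the 387 other tested miRNAs had a Pearson r below −0.9 with miR-210-3p.

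The tumours grew in C57BL/6 mice inoculated in the right flank with 0.1 ml of Hepa1-6 cells, a mouse hepatoma line, and the labels give 28 days as age. The treated group of 3 mice received GLE, an abbreviation left unexplained in the labels, at 0.023 g a day for a mouse of 10 g. The model group of 3 mice received 0.2 ml of 0.9% saline a day for 28 days. Each mouse gave 1 tumour, 1 RNA sample and 1 array, the line is shared by all mice, and the pieces were bulk tissue. In bulk tissue, fewer cells of a type and less RNA per cell cannot be told apart. The sex of the mice and the route of GLE are not given in the sources used here.

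The 3p arm is the strand that is loaded into Argonaute in most tissues, and the 5p arm is the passenger strand. Under low oxygen, HIF-1 binds the miR-210 promoter and raises the transcript in nearly every cell type studied, which has made miR-210-3p a standard hypoxia marker in solid tumours. Its best known targets are ISCU, an iron-sulfur cluster scaffold of mitochondria, and other mitochondrial and cell cycle genes, so that induction lowers respiration. The arrays held no measure of oxygen, HIF protein or target mRNA, so that the name hypoxia-induced is background here and was not tested.

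The sequences below show what the array could read. The mature arms are from RefSeq (GRCm38.p6, minus strand), written 5′ to 3′ with the seed, bases 2 to 8, in capitals. The 3p arm lies at chr7:141221407-141221428 and the 5p arm at chr7:141221445-141221466.
miR-210-3p: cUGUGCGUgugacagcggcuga
miR-210-5p: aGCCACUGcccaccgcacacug
The hairpin of 110 bases (chr7:141221384-141221493, same build and strand) is shown with both arms in capitals, the 5p arm first.
Mir210 hairpin: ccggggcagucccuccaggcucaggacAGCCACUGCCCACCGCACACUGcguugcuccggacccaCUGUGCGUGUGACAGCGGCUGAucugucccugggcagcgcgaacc
In its predicted fold (RNAfold, −48 kcal/mol), 17 of the 22 bases of the 3p arm were paired, 16 of them with the 5p arm. None of the other mature entries among the 1679 searched in the RefSeq table shared the seed of either arm, or its bases 2 to 7. In the RefSeq annotation of GRCm38.p6 no other gene overlapped the hairpin, and the nearest listed genes were Rassf7 on one side and Gm51460 and Phrf1 on the other.

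Each arm had 2 probes, each printed in 15 spots per array. They are shown because their lengths and the bases they cover differ between the arms. The capital marks the base that only the longer probe of the pair holds, and the positions are those of the arm bases that a probe covers (GRCm38.p6, minus strand). The longer 3p probe covers chr7:141221407-141221422 and the longer 5p probe chr7:141221445-141221457.
miR-210-3p probe of 16 bases: tcagccgctgtcacaC
miR-210-3p probe of 15 bases: tcagccgctgtcaca
miR-210-5p probe of 13 bases: cagtgtgcggtgG
miR-210-5p probe of 12 bases: cagtgtgcggtg
All 4 probes were the exact complement of the 3′ end of their arm. The 3p probes covered bases 7 to 22 and 8 to 22 of the arm, which takes in 2 and 1 bases of the seed. The 5p probes covered bases 10 to 22 and 11 to 22 and reached 0 bases of the seed. The complement of each probe occurred in 0 other mature sequences of the RefSeq table. GC content was 62.5% and 60% in the 3p probes and 69.2% and 66.7% in the 5p probes.

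All 6 arrays lay on 1 slide with 1 scan time, per the file headers. The GLE arrays lay in 1 row of that slide and the model arrays in the other, so that row and group cannot be told apart. Between 378 and 458 miRNAs were detected per array and 388 were bright enough to test, with 0 saturated spots. The array scale, taken as the 75th percentile over 636 probes that every array detected, was 203, 364 and 241 intensity units in GLE replicates 1 to 3 and 313, 231 and 211 in model replicates 1 to 3. The labelled tissue was checked against hepatocyte miRNAs. miR-122-5p, the defining miRNA of differentiated hepatocytes, was detected on 1 of 3 GLE arrays and 1 of 3 model arrays. Of the other listed hepatocyte miRNAs, miR-192-5p and miR-148a-3p were detected on all 6 arrays, and miR-194-5p on 3 GLE and 2 model arrays.

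The processed signal of the 16-base miR-210-3p probe averaged 834, 1642 and 796 intensity units in GLE replicates 1 to 3, against 1472, 1208 and 851 in model replicates 1 to 3. The 15-base probe averaged 457, 905 and 436 units in the GLE tumours and 814, 694 and 479 in the model tumours. On both probes GLE replicate 2 was the brightest tumour and GLE replicate 3 the dimmest, before any scaling between arrays. Every one of the 90 spots of each 3p probe was well above background. The probe means were 37.1 to 129 times the lowest signal of any detected probe on the same array.

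The spots agreed closely within each array. Their coefficient of variation was 1.56% to 5.25% per probe and array. The SD over spots had a median of 0.040 on the log2 scale, and the SE of a probe mean was at most 0.020. The SD between tumours of a group, pooled over both groups, was 0.21, which is 5.40 times the median SD between spots. The 16-base probe was 1.81 to 1.82 times as bright as the 15-base probe in the GLE tumours and 1.74 to 1.81 times as bright in the model tumours, and the pair put GLE minus model at −0.23 and −0.27 on the log2 scale. After scaling, the probes differed in the order of GLE replicate 1 and model replicate 3, at 2.04 and 2.01 on the 16-base probe and 1.17 and 1.19 on the 15-base probe.

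**Figure D1:**
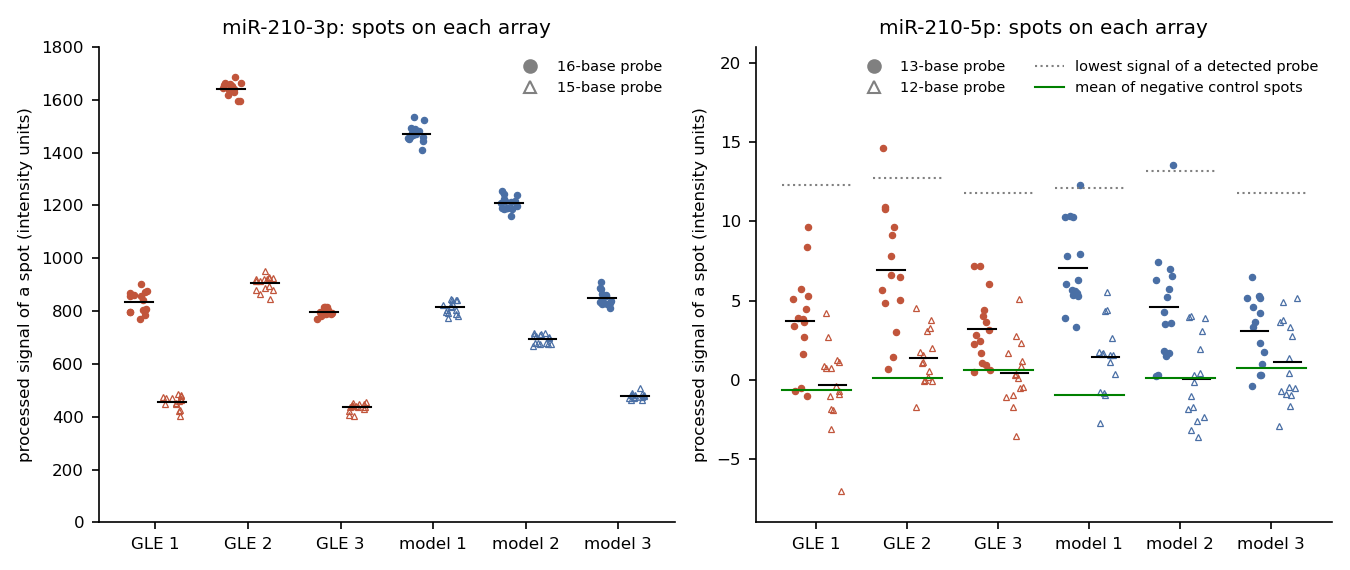
Processed signal (intensity units) of single spots, left for miR-210-3p and right for miR-210-5p, by array. Filled circles are the longer probe, open triangles the shorter, black lines the mean over spots, the green line the mean of the negative control spots and the dotted line the lowest signal of a detected probe. The 3p spots of an array lie close together, from 796 to 1642 units on average for the 16-base probe, while the 5p means lie below the dotted line on all 6 arrays.

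After each array was divided by its scale, miR-210-3p stood at 3.04, 3.35 and 2.45 times the array scale in GLE replicates 1 to 3, against 3.50, 3.96 and 3.03 times in model replicates 1 to 3. These are 1.60, 1.74 and 1.29 on the log2 scale in GLE tumours and 1.81, 1.99 and 1.60 in model tumours. The lowest tumour was GLE replicate 3 and the highest was model replicate 2. The groups overlapped, since GLE replicates 1 and 2 lay just above and well above model replicate 3, whereas in 2.06% of the 388 tested miRNAs all GLE values lay below all model values. The full range over the 6 tumours was 1.62-fold.

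On the log2 scale the GLE group averaged 1.55 ± 0.23 and the model group 1.80 ± 0.19 (SD, n = 3 each). The difference, GLE minus model, was −0.25 ± 0.20 (SE, limma), a fold of 0.840 with a 95% interval of 0.609 to 1.16. It did not pass limma's test across the 388 miRNAs (adjusted p = 0.935, unadjusted p = 0.240). The two-sided exact permutation test over the 20 relabelings of the arrays gave p = 0.3, where the smallest possible value was 0.1. Of all 388 tested miRNAs, limma called 0, or 0%, while 6, or 1.55%, had an unadjusted p under 0.05. The interval does not exclude a decrease to 0.609-fold or an increase to 1.16-fold.

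Set among all tested miRNAs, 40, or 10.3%, had a lower difference than miR-210-3p, and 49.0% had a difference below 0 (median 0.0078). The pooled SD of miR-210-3p between tumours was below the median of 0.28 over all tested miRNAs, and 33.2% of them had a smaller SD. Its spread was similar in both groups, with a range of 0.45 in GLE tumours and 0.39 in model tumours on the log2 scale. On the linear scale the coefficient of variation between tumours was 15.6% in GLE and 13.3% in model tumours.

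The sign was negative in all 23 other ways of processing the data or leaving out an array that were tried. Some of these could not move the value, which stayed at −0.25. They were the use of probes detected on all 6 arrays, no filter on dim probes and a floor set per array. The others were limma with an intensity trend and the replicate number as a block. With all arrays the difference ran from −0.34 to −0.18. The value rested partly on single tumours, since leaving out GLE replicate 3 gave −0.12 and leaving out model replicate 2 gave −0.16. In the authors' deposited table, miR-210-3p had the same value, 8.76, in all 3 GLE tumours, and 8.91, 9.24 and 8.84 in model replicates 1 to 3 (log2 scale). There the groups did not overlap, and the same table had all GLE values below all model values for 5.15% of the 388 miRNAs and all outside them, in either direction, for 9.28%. With quantile normalisation of the scanner signal the groups also did not overlap, at 9.47, 9.63 and 9.46 in GLE tumours and 9.74, 10.09 and 9.66 in model tumours (log2 scale). With that normalisation all GLE values lay below all model values for 5.93% of the 388 miRNAs and outside them, in either direction, for 9.54%. The deposited table and the quantile normalisation may not be separate settings. With no scaling between arrays, and with scaling to the labelling spike-ins, GLE replicate 2 was the highest tumour instead of model replicate 2.

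**Figure D2:**
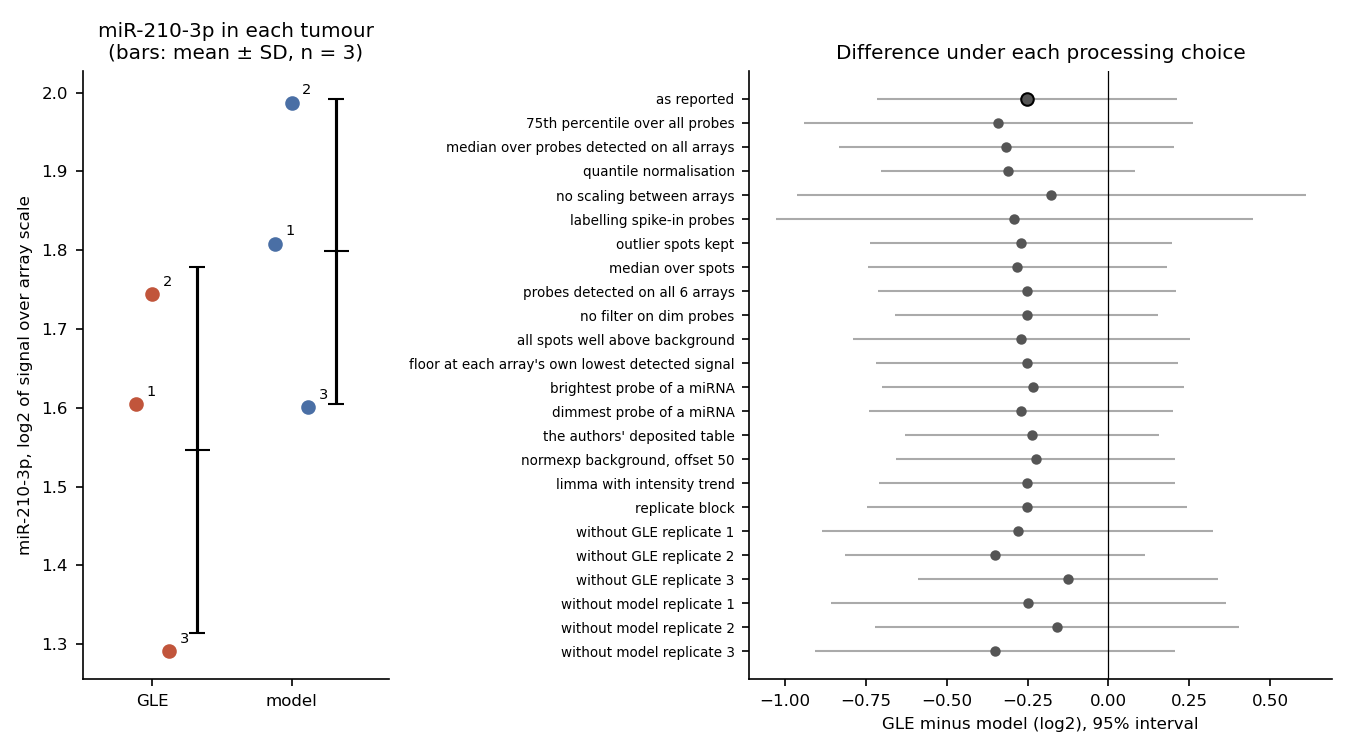
Left, miR-210-3p in each tumour (log2 of signal over array scale, replicate numbers beside the points) with the mean ± SD of each group. Right, GLE minus model (log2) with the 95% interval of the limma fit under each processing choice and with each array left out. All points lie between −0.35 and −0.12, and every interval crosses 0.

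miR-210-5p, the passenger arm, gave signal near background. Its 13-base probe averaged 3.70, 6.91 and 3.20 intensity units in GLE replicates 1 to 3, against 7.06, 4.59 and 3.08 in model replicates 1 to 3. The 12-base probe averaged −0.35, 1.40 and 0.43 units in GLE tumours and 1.42, 0.078 and 1.15 in model tumours. All these means lay below the lowest signal of a detected probe, which was 11.8 to 13.2 units. Of the spots, 2 of 15 were well above background for the 13-base probe on the array of GLE replicate 2, 1 of which was marked as an outlier, and 0 elsewhere. The authors' deposited table listed miR-210-5p at the lowest value of the column on every array. No fold between the groups is given, since neither was well above background.

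The 1000 negative control spots of each array averaged −0.95 to 0.74 units with a spot SD of 2.63 to 4.04. The 13-base probe exceeded the mean of the brightest of the 7 negative control probes on 6 of 6 arrays, and the 12-base probe did so on 2. The 13-base signal averaged 4.60 ± 2.01 units in the GLE group and 4.91 ± 2.01 in the model group (n = 3 each, SD, exact permutation p = 0.8, smallest possible 0.1). The means of this arm thus differed by less than the SD between tumours of either group.

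The 5p signal, below detection on all 6 arrays, ran with the bright 3p signal from array to array. Over the 6 arrays, the 13-base 5p signal and the 16-base 3p signal had a Pearson r of 0.97 (exact permutation p = 0.0139, adjusted p = 0.0306 over the 4 relations computed) and a Spearman rho of 0.77 (exact permutation p = 0.103, adjusted p = 0.175). Without the 2 arrays farthest from the median, GLE replicate 2 and model replicate 1, r was 0.91. Both signals also ran with the array scale, with r of 0.90 for the 5p probe (exact permutation p = 0.0319, adjusted p = 0.0426; rho 0.66, exact permutation p = 0.175) and 0.91 for the 3p probe (exact permutation p = 0.0153, adjusted p = 0.0306; rho 0.66, exact permutation p = 0.175). These relations to the scale were 0.15 and 0.27 without GLE replicate 2 and model replicate 1, and thus rest on those arrays. When both signals were divided by the array scale, the arms had an r of 0.82 (exact permutation p = 0.0458, adjusted p = 0.0458) and a rho of 0.94 (exact permutation p = 0.0167, adjusted p = 0.0667). Without GLE replicate 3 and model replicate 2 that r was 0.89. The signals of an array share its labelling, its scan and its scale. What part cross-hybridisation has in the 5p signal was not tested.

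**Figure D3:**
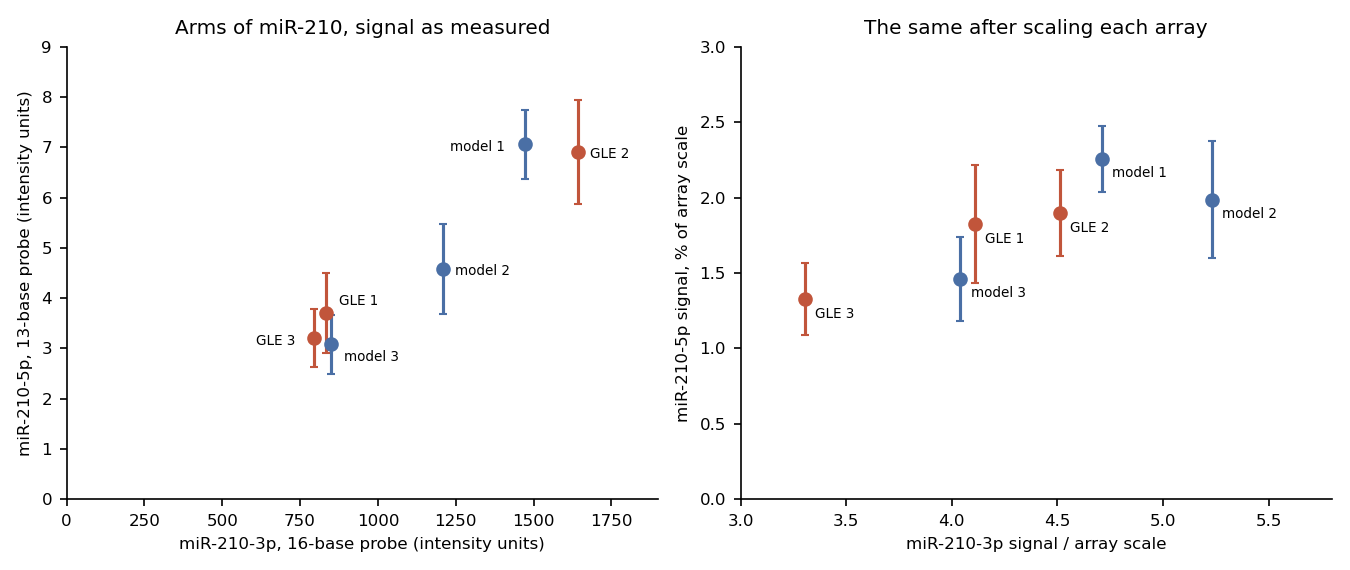
Mean signal of the 13-base miR-210-5p probe (bars, SE over spots) against the 16-base miR-210-3p probe on the 6 arrays, left in intensity units and right after division by the array scale. GLE replicate 2 and model replicate 1 are high on both arms, and after scaling GLE replicate 3 is the lowest tumour on both.

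Other miRNAs tied to oxygen were set beside miR-210-3p in 2 lists, one of miRNAs reported to rise under hypoxia in cancer or endothelial cells and one of miRNAs reported to target HIF1A mRNA. Of 20 listed hypoxia-induced miRNAs, 18 were tested, and 0 passed limma's test in either direction, beside 0% of all tested miRNAs. Their differences were positive in 10 and negative in 8, with a median of 0.010 on the log2 scale against 0.0078 over all 388. Without GLE replicate 2 the list's median was −0.13, against 0.061 over all tested miRNAs.

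miR-21a-5p, a growth-promoting miRNA of many tumours, stood at 6.07, 5.78 and 6.21 in GLE tumours against 5.65, 5.49 and 5.76 in model tumours (log2 scale), a difference of 0.39 ± 0.18 (limma adjusted p = 0.935). Its groups did not overlap, as was so for 6.70% of tested miRNAs, and for 1 more member of the list, miR-322-5p, the mouse form of human miR-424, at 0.10 ± 0.15. miR-155-5p, a miRNA switched on when lymphocytes and macrophages are activated, differed by 0.71 ± 0.35, and miR-195a-5p, of the miR-15 seed family, by 0.64 ± 0.31 (limma adjusted p = 0.935 for each).

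At the other end of the list were miR-93-5p, of the miR-106b cluster, at −0.35 ± 0.31 and miR-125b-5p, which is abundant in mesenchymal cells, at −0.22 ± 0.18. miR-23b-3p was at −0.18 ± 0.21. miR-107-3p and miR-103-3p, which target the Dicer mRNA, were near level at 0.037 ± 0.15 and −0.073 ± 0.16. None of these passed (limma adjusted p = 0.935 to 0.963).

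Of the 8 listed miRNAs that target HIF1A, 7 were tested and 0 passed, beside 0% of all tested miRNAs. The differences were positive in 2 and negative in 5, where 49.0% of all 388 tested miRNAs had a difference below 0. The list's median was −0.21, against 0.0078 over all 388. It was 0.039 when GLE replicate 3 was left out and −0.44 when GLE replicate 2 was. The members of the MYC-driven miR-17 cluster were at −0.35 ± 0.28 for miR-17-5p, −0.25 ± 0.29 for miR-20a-5p and −0.18 ± 0.27 for miR-18a-5p. miR-20b-5p, from a paralogous cluster on the X chromosome, was at −0.21 ± 0.26. miR-429-3p, an epithelial miRNA of the miR-200 family, was at −0.78 ± 0.70. miR-199a-5p, of mesenchymal cells, differed by 0.68 ± 0.44, the only positive value of the list besides that of miR-155-5p.

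**Figure D4:**
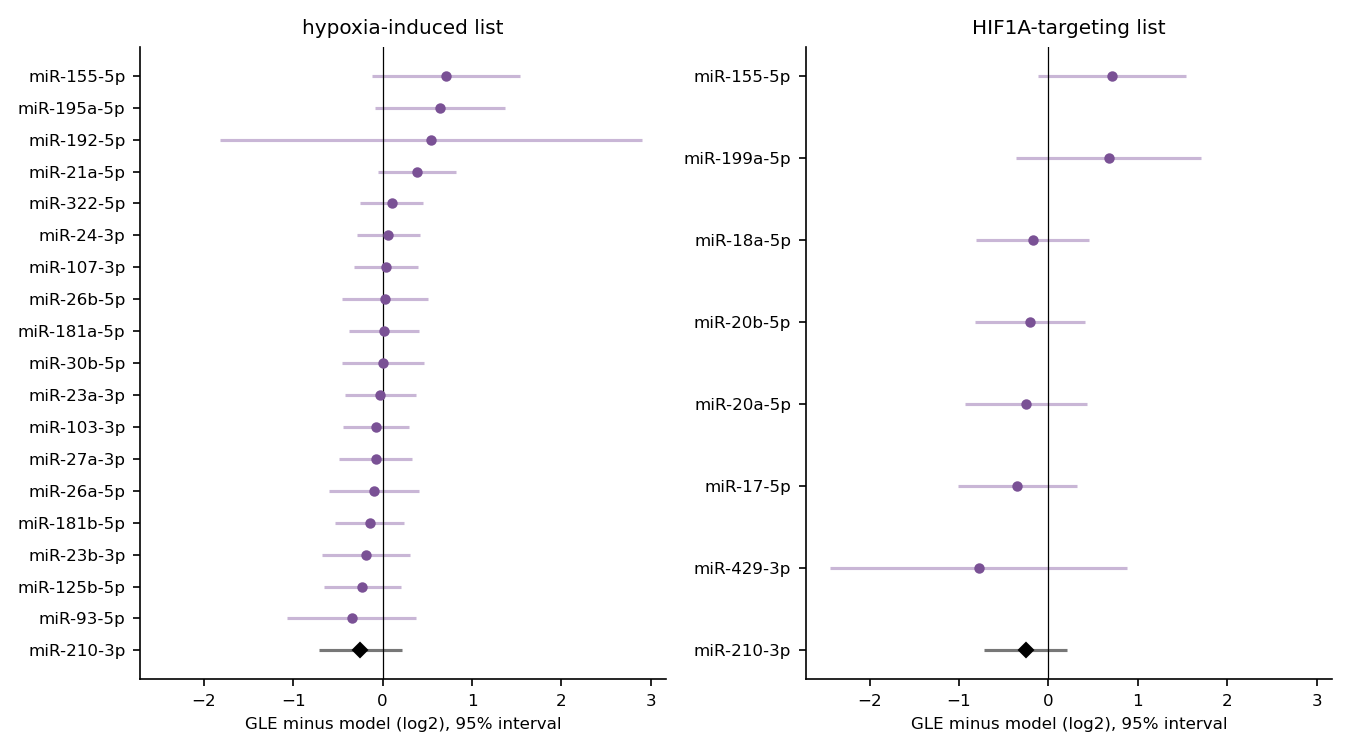
GLE minus model (log2) with 95% intervals of the limma fit for the tested members of the hypoxia-induced list (left) and the HIF1A-targeting list (right), with miR-210-3p as the black diamond at the bottom of each. Every interval crosses 0, and the diamond at −0.25 lies near the low end of the hypoxia-induced list and in the middle of the HIF1A-targeting list.

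The miRNAs whose values over the 6 tumours were most like those of miR-210-3p were found by Pearson r on the normalised log2 values. These r values describe the 387 other tested miRNAs on the same 6 arrays, which share each array's scale, and no test is attached. Their median was −0.14, the middle 95% ran from −0.94 to 0.86, and 5 miRNAs were above 0.9 while 31 were below −0.9. The 5 highest were miR-690 (r = 0.97, rho = 0.89), miR-100-5p (r = 0.94, rho = 0.94), miR-30d-5p (r = 0.92, rho = 0.77), miR-700-3p (r = 0.91, rho = 0.83) and miR-125b-5p (r = 0.90, rho = 0.94). miR-100-5p comes from a cluster that also holds a gene for miR-125b-5p. miR-700-3p was at the floor of the scale in GLE replicate 3, and its r was 0.51 without GLE replicate 3 and model replicate 2. All 5 kept a positive r in every set of values that held them. In the authors' deposited table r was lower, at 0.49 for miR-690, 0.64 for miR-100-5p and 0.47 for miR-30d-5p. There it was 0.20 for miR-700-3p and 0.35 for miR-125b-5p.

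miR-100-5p stood at 0.76, 1.35 and 0.14 in GLE replicates 1 to 3 and at 1.37, 1.38 and 0.92 in model replicates 1 to 3 (log2 scale). miR-690 was at −0.32, 0.10 and −0.86 in GLE tumours and at −0.0044, 0.23 and −0.31 in model tumours. Both were lowest in GLE replicate 3 and highest in model replicate 2, as miR-210-3p was.

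The 5 miRNAs of lowest r were miR-142a-3p (r = −0.98, rho = −0.94), miR-140-5p (r = −0.98, rho = −0.94), miR-199a-3p (r = −0.96, rho = −0.89), miR-155-5p (r = −0.96, rho = −0.94) and miR-199a-5p (r = −0.96, rho = −0.89). miR-142a-3p is present across blood cell lineages, miR-155-5p in activated immune cells, and miR-199a in fibroblasts and other mesenchymal cells. miR-142a-3p stood at 1.67, 1.25 and 2.09 in GLE replicates 1 to 3 and at 1.07, 0.86 and 1.50 in model replicates 1 to 3 (log2 scale), so that GLE replicate 3 was its highest tumour and model replicate 2 its lowest. miR-140-5p, a cartilage and mesenchymal miRNA, changed sign to r = 0.57 with no scaling between arrays and to 0.49 with the labelling spike-ins. The other 4 had a negative r in each of the 15 sets of values compared, but with no scaling between arrays r was −0.11 for miR-142a-3p, −0.30 for miR-155-5p, −0.44 for miR-199a-3p and −0.46 for miR-199a-5p. With the labelling spike-ins it was −0.36 for miR-142a-3p. In the authors' deposited table the 5 miRNAs of lowest r ran from −0.53 for miR-142a-3p to −0.64 for miR-155-5p.

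Marker lists of other cell types were summed and set beside miR-210-3p. The immune list holds miR-142a-3p and the fibroblast list both miR-199a arms, which were named above for their low r, so that these sums are no separate evidence of the relation. The 5 immune markers, miR-142a-3p, miR-142a-5p, miR-150-5p, miR-223-3p and miR-342-3p, were all tested and each was detected on all 6 arrays. Their summed level was 10.1, 5.10 and 14.7 times the array scale in GLE replicates 1 to 3 and 4.54, 4.22 and 6.68 in model replicates 1 to 3. It was highest in the tumour with the least miR-210-3p and lowest in the tumour with the most. On the log2 scale its Pearson r with miR-210-3p was −0.93 (exact permutation p = 0.00278, adjusted p = 0.0167 over 6 lists), rho was −0.94 (exact permutation p = 0.0167, adjusted p = 0.1), and r was −0.87 without GLE replicate 3 and model replicate 2.

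The 3 fibroblast markers, miR-199a-3p, miR-199a-5p and miR-214-3p, were all tested too. Their sum was 2.12, 1.14 and 3.81 times the array scale in GLE tumours and 1.19, 0.962 and 1.61 in model tumours. Its r with miR-210-3p was −0.96 (exact permutation p = 0.00556, adjusted p = 0.0167), rho was −0.89 (exact permutation p = 0.0333, adjusted p = 0.1), and r was −0.87 without GLE replicate 3 and model replicate 2. After the group means were taken out, r was −0.90 for the immune and −0.94 for the fibroblast list, so that the relation held among tumours of the same treatment. Without the markers already among the 5 of lowest r, which made up 29.0% to 46.6% of the immune and 89.9% to 92.0% of the fibroblast sum, r was −0.91 for the 4 immune markers left and −0.95 for the 1 fibroblast marker left, miR-214-3p, a choice made after seeing the data. The 4 immune markers left include miR-142a-5p, the other arm of the miR-142a hairpin, so these reduced values are no separate evidence either. For the full sums r was negative in all 15 sets of values and weakened to −0.47 for immune and −0.44 for fibroblast markers with no scaling between arrays. In the authors' deposited table it was −0.56 for immune and −0.60 for fibroblast markers. With the labelling spike-ins it was −0.69 and −0.65. Beside these sums, 31 of the 387 other tested miRNAs had an r below −0.9. Among them were miR-21a-5p at −0.93 and miR-195a-5p at −0.93, which are on neither marker list. The part that immune and fibroblast content has in the miR-210-3p values was not tested.

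With the scaling used here, the remaining lists moved less closely with miR-210-3p over the 6 tumours. The endothelial list had 1 of 2 members tested, miR-126a-3p, with an r of −0.80 (exact permutation p = 0.05, adjusted p = 0.1; rho −0.66, exact permutation p = 0.175, adjusted p = 0.263) that was −0.25 without GLE replicate 3 and model replicate 2, so that it rests on those tumours, and that turned positive in 2 of the 15 sets of values. Its level was 2.87 to 4.0 times the array scale in GLE tumours and 2.30 to 2.71 in model tumours. For the hepatocyte list, with 3 of 4 members tested, r was 0.50 (exact permutation p = 0.311, adjusted p = 0.467; rho 0.77, exact permutation p = 0.103, adjusted p = 0.206), and the sum was 0.551 to 2.61 in GLE and 0.709 to 1.22 in model tumours. The hepatocyte r was positive in all 15 sets of values, from 0.028 in the authors' deposited table to 0.91 with no scaling between arrays. With no scaling, and with the labelling spike-ins at 0.87, it was larger in size than the immune and fibroblast r. The muscle list, with 3 of 3 tested, had an r of −0.056 (exact permutation p = 0.915, also after adjustment; rho 0.086, exact permutation p = 0.919) and sums of 0.795 to 2.61 in GLE and 0.501 to 1.20 in model tumours. The erythrocyte list, with 2 of 3 tested, had an r of 0.087 (exact permutation p = 0.886, adjusted p = 0.915; rho −0.086, exact permutation p = 0.919) and sums of 2.90 to 10.67 in GLE and 4.18 to 12.2 in model tumours. When GLE replicate 3 and model replicate 2 were left out, r was 0.69 for the hepatocyte, −0.85 for the muscle and −0.95 for the erythrocyte list, so that the 2 last values near 0 rest on those tumours too. Among the 17 tested markers of all 6 lists, 0 passed limma's test between the groups, beside 0% of all 388 tested miRNAs.

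**Figure D5:**
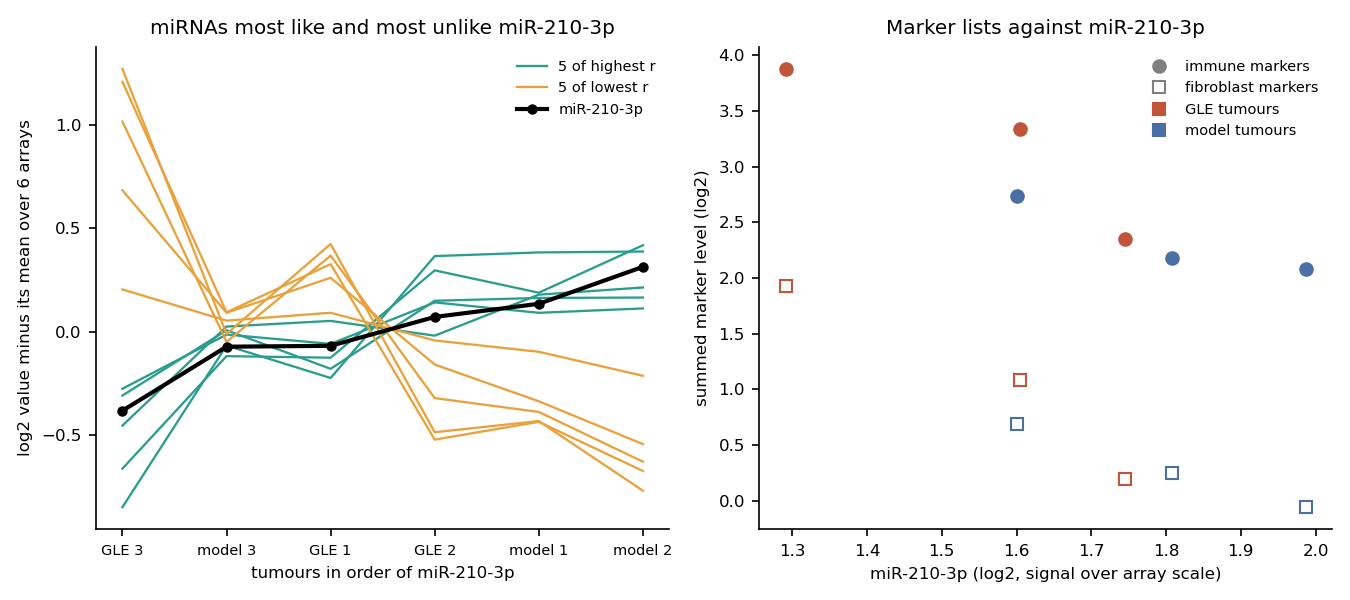
Left, log2 values minus their mean over the 6 arrays for miR-210-3p (black) and the 5 miRNAs of highest (green) and lowest (orange) Pearson r with it, with tumours in order of miR-210-3p. Right, summed level of the 5 immune and 3 fibroblast markers (log2) against miR-210-3p (log2). GLE replicate 3 has the lowest miR-210-3p and the highest marker sums, and model replicate 2 the reverse.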

How the data were processed

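Tumour RNA of 6 mice, 3 GLE and 3 model, was read on 1 one-colour (Cy3) Agilent miRNA array each. Per the file headers, the deposited values are intensity on a linear scale, made with Agilent Feature Extraction 10.7.1.1, which subtracted background and a spatial trend and did not normalise between arrays. The authors also deposited a table of 1 value per miRNA and array. Its values are log2 by comparison with the same arrays (Spearman correlation over the 388 tested miRNAs 0.999 to 1.00, slope 1.01 to 1.08). Its column medians, −3.20, −3.32 and −3.27 for GLE and −3.32, −3.17 and −3.13 for model replicates 1 to 3, are the columns' lowest values. How the authors normalised and centred these deposited log2 values was not established here. The lowest value of a column was higher where a larger share of miRNAs sat at it, from −3.32 at 69.2% to −3.13 at 75.8%. Given this, and the same 8.76 for miR-210-3p in every GLE column, the deposited values may not be a separate setting from quantile normalisation. Each column is a single array, so the deposited values have no direction between groups. They served as an alternative.

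Processed signals were averaged per probe over spots without outlier flags, divided by each array's 75th percentile over 636 probes that every array detected (more than a share of 0.5 of spots well above background), floored at −4.25 and taken to log2. Probes detected throughout at least 1 group were averaged to give a miRNA's value. Groups were compared with limma 3.58.1 in R 4.3.3 (two-sided, Benjamini-Hochberg over 388 miRNAs, threshold 0.05), after tests on simulated data. Single values used exact permutation of 20 relabelings, relations exact permutation of 720 pairings (Python 3.11.15). The hairpin was folded with RNAfold 2.7.2. Members and lists were chosen with earlier results of these data known, so no list is independent support. Named miRNAs are the members, the tested members of the lists, the 5 of highest and 5 of lowest r with miR-210-3p, and markers. Precision is limited by the number of arrays, and the 95% interval of the miR-210-3p difference was ± 0.46. The labels name each sample as a separate mouse.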

Additional observations from a re-analysis of the deposited data

How the results depend on the processing

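miR-210-3p kept a negative difference and an adjusted p above the threshold in all 23 alternatives (limma, adjusted p = 0.318 to 1.00), of which 1, the dimmer probe alone, was chosen after seeing the data. It ran from −0.35 to −0.12 with an array left out and was −0.25 with the replicate number as a block (adjusted p = 0.980). The block, the intensity trend, the floor set per array and the changes in which detected probes were kept could not move the difference itself. Same-numbered tumours did not all deviate together (r = −0.62, −0.18 and 0.37 for pairs 1, 2 and 3). With 3 arrays per group these values cannot settle whether the numbers pair the tumours. Same-numbered arrays lay in the same column of the slide. The block left the count of calls at 0. Over all miRNAs, 0 to 2 passed with an array left out, the 2 without GLE replicate 2 and 0 in every other alternative. The median of the hypoxia-induced list ran from −0.13 (without GLE replicate 2) to 0.066 with an array left out, and its sign was negative in 13 of 23 alternatives. The HIF1A-targeting list ran from −0.44 to 0.039 with an array left out. miR-210-5p was detected on 0 arrays also with outlier spots kept and with every spot required above background. Without the filter its values were all at the floor, so no difference could be had. Of the 5 miRNAs of highest r, 3 were among the highest by Spearman rho and 3 after the group means were taken out. Of the 5 lowest, the numbers were 3 and 3. The cause of these moves was not tested. All arrays lay on 1 slide, so slide was not run as a block.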
